A study of Homo sapiens with 15 samples.

Results

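Death receptors and the proteins that carry their signal to caspase-8 were followed in K562 cells, an established human line of chronic myeloid leukaemia, after 24 h of martinostat, an inhibitor of histone deacetylases. The 10 genes were chosen by name and comprised the ligand TNFSF10, its receptors TNFRSF10A, TNFRSF10B, TNFRSF10C and TNFRSF10D, the receptor FAS, the adaptor FADD, the initiator caspases CASP8 and CASP10, and CFLAR. They were 10 of the 60649 genes in the count table. Cells were left untreated or received 1 of 4 doses, 0.15 µM, 0.25 µM, 0.5 µM or 1 µM martinostat, with 3 poly(A) RNA libraries in each of the 5 groups. The untreated group served as the control for every dose, no vehicle is named in the labels, and all libraries came from a single cell line. The labels number the libraries as biological replicates without saying how the cultures were separated, so p-values measure the spread between these libraries.

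TNFSF10 encodes TRAIL, a ligand that binds TNFRSF10A (DR4) and TNFRSF10B (DR5) on the cell surface. These receptors and FAS recruit FADD through their death domains, FADD recruits procaspase-8 and procaspase-10, and the caspases activate each other in the complex. TNFRSF10C and TNFRSF10D bind TRAIL without a complete death domain and are called decoy receptors. CFLAR encodes c-FLIP, a relative of caspase-8 that competes with it for FADD and limits its activation. Downstream, caspase-8 cuts the executioner caspases directly and cuts BID, which carries the signal to the mitochondria. K562 cells are known as an erythroleukaemic model.

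CFLAR, CASP10 and CASP8 lie side by side on chromosome 2 in the same orientation, and TNFSF10 lies on chromosome 3. The 250 bases before the canonical transcript start of TNFSF10, CASP10 and CASP8 (hg38, GENCODE 44 starts) are shown because TNFSF10 fell at high dose while both caspase genes were not called lower than in untreated cells. The windows are chr3:172523431-172523680 on the minus strand for TNFSF10, and, on the plus strand, chr2:201182891-201183140 for CASP10 and chr2:201260286-201260535 for CASP8. The CASP10 and CASP8 windows lie inside the annotated genes, which begin at 201182872 and 201233443. The TNFSF10 window overlaps its gene, which reaches to 172523475. The windows therefore precede the canonical starts only, not the outermost starts of the genes. They are written 5′ to 3′ in the direction of transcription, and capitals mark matches on either strand to GATAA or CCAAT, to GGGCGG or TATAAA, or to TTCNNNGAA.
TNFSF10: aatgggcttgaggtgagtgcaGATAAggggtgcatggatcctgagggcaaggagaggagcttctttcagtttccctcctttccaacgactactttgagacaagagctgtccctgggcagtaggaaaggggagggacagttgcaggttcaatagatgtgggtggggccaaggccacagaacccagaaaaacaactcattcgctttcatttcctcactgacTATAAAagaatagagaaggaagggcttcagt
CASP10: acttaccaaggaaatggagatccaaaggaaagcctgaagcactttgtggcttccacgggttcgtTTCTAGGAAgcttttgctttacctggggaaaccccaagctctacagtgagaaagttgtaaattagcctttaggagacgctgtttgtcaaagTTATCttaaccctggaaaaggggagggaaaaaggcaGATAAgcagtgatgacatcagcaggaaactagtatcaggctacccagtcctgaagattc
CASP8: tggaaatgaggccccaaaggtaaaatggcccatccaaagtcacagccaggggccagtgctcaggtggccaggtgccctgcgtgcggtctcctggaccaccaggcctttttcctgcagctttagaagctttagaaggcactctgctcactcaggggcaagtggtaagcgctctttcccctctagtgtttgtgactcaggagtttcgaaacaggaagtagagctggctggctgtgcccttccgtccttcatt
TNFSF10 held 1 match to GATAA, 229 bases before the start, and 1 to TATAAA, 31 bases before it. CASP10 held 2 matches to GATAA, 95 and 59 bases before the start, and 1 to TTCNNNGAA, 186 bases before it. The window of CASP8 held none of these letters, and no match overlapped another motif. Among 20032 windows of the same length before protein-coding genes, 15.9% held GATAA, 34.3% CCAAT, 59% GGGCGG, 9.35% TATAAA and 5.67% TTCNNNGAA. The G and C content was 49.6% for TNFSF10, 45.2% for CASP10 and 55.6% for CASP8. These matches describe the letters only.

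Library totals ranged from 23755510 to 32805574 counts. Replicate 3 at 0.25 µM and replicate 3 at 0.5 µM stood apart on principal component 3, at -78.4 and -82.6 against -25.4 to 54.3 for the other 13 libraries, and results that rest on them are given without them too. A level is a count relative to library size (CPM), with library sizes scaled by edgeR's TMM factors. Changes are log2 fold changes from edgeR's quasi-likelihood test. They are given ± SE, derived as the absolute change divided by the square root of the test's F statistic. A called gene had a p under 0.05 after Benjamini-Hochberg adjustment over the 23711 genes tested. Across these genes the median change on this scale was 0.28, 0.32, 0.34 and 0.32 in order of dose, so small changes are to be read against these values. In the same order the medians were 0.64, 0.85, 0.72 and 0.67 when libraries were scaled by their totals, and 0.54, 0.73, 0.75 and 0.70 when TMM factors came from the abundant genes (mean of 10 CPM or more). All 10 genes of an erythroid marker list had counts in untreated cells, including TFRC (1228 CPM). Their summed level ran from 3621 to 3951 CPM in untreated libraries, 1747 to 1880 at 0.15 µM, 1086 to 1384 at 0.25 µM, 642 to 972 at 0.5 µM and 862 to 998 at 1 µM, and 9 of the 10 had a lower mean at 1 µM. The summed level of 8 lymphoid and monocyte markers was 13.1 to 18.3 CPM in untreated libraries, 50.2 to 56.0 at 0.15 µM, 41.1 to 61.2 at 0.25 µM, 38.9 to 42.0 at 0.5 µM and 37.1 to 43.9 at 1 µM. Of these 8 markers, 6 had a higher and 2 a lower mean at 1 µM. MS4A1, which marks B cells, was at 0 in untreated cells and at 0.15 and 0.25 µM. CSF1R had a mean of 0.457 CPM in untreated cells and 25.9 at 1 µM, a large part of the sum there. LYZ went the other way, from 7.81 CPM in untreated cells to 1.76 at 1 µM, and so did CD3D, from 3.53 to 1.72. The sums of both lists moved with dose beside the genes described here, and the part of these markers in those results was not tested. In bulk RNA, fewer cells that express a gene and less RNA per cell cannot be told apart.

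The members did not move together. At 0.5 and 1 µM the death receptor TNFRSF10B rose while the related receptor TNFRSF10A, their ligand TNFSF10 and the inhibitor CFLAR fell, and the adaptor FADD passed the test at no dose on the TMM scale. Both initiator caspases were called higher at 0.25 µM and neither was called at 1 µM on that scale, and other scalings changed these calls of FADD and of the caspases at 1 µM. The remaining members, TNFRSF10C, TNFRSF10D and FAS, had 0 counts in untreated cells and too few elsewhere to be tested. Of the 7 members tested, 2 were called against untreated cells at 0.15 µM (1 higher, 1 lower), 4 at 0.25 µM (3 higher, 1 lower), 5 at 0.5 µM (2 higher, 3 lower) and 4 at 1 µM (1 higher, 3 lower). Over all tested genes the called share was 51.2% at 0.15 µM (31.9% higher, 19.4% lower), 62.3% at 0.25 µM (37.4% higher, 24.8% lower), 66.9% at 0.5 µM (39.4% higher, 27.6% lower) and 66.2% at 1 µM (38.8% higher, 27.5% lower). The share of members called was thus below or near that background. Their median log2 fold change was 0.37, 0.50, -0.02 and 0.08 in order of dose. Under library totals the called members were 4 higher and 0 lower at 0.15 µM, 6 higher and 1 lower at 0.25 µM, 4 higher and 3 lower at 0.5 µM and 3 higher and 3 lower at 1 µM. A test for any difference among the 5 groups called 6 of the 7, all but FADD, against 73.6% of all tested genes.

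**Figure D1:**
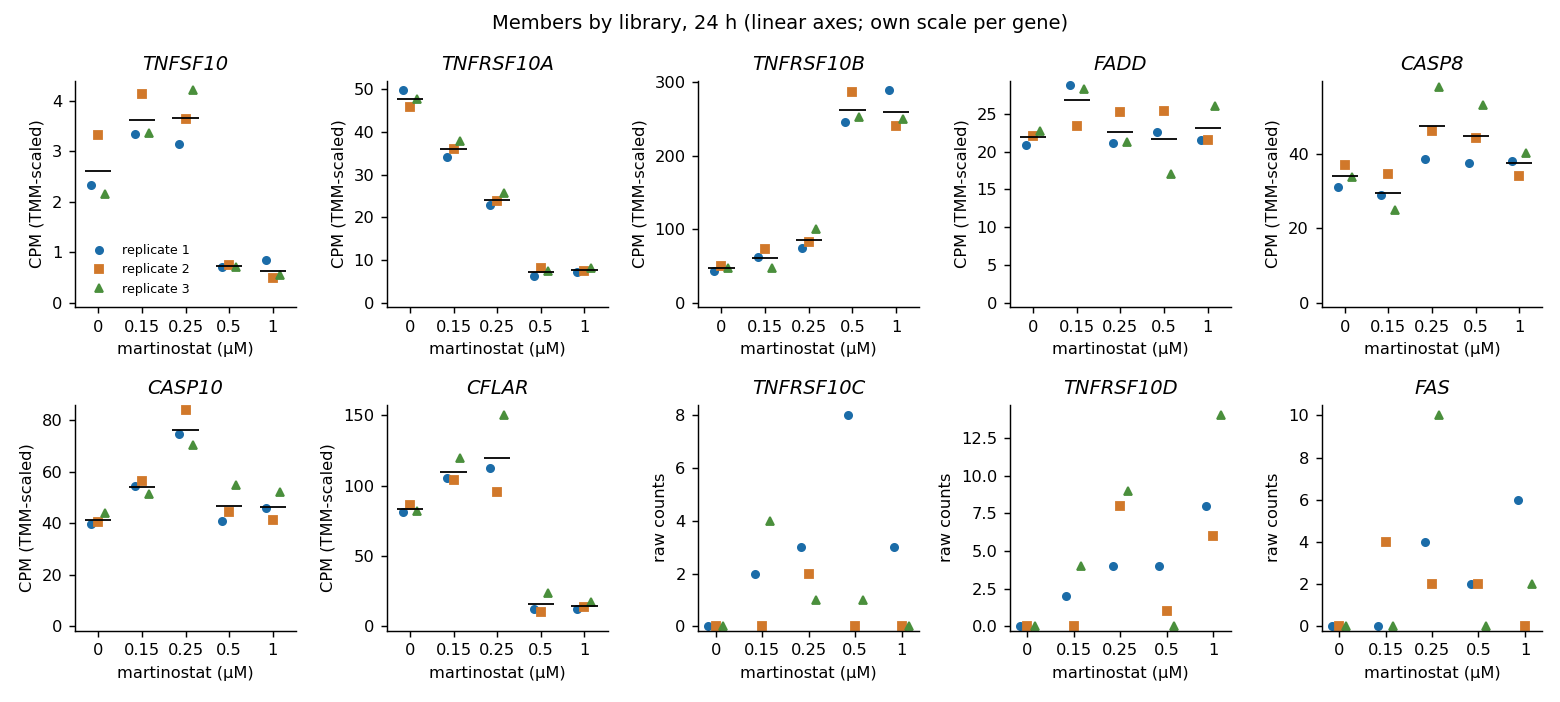
Level of each member in all 15 libraries by martinostat dose, in CPM for the 7 tested genes (line: mean of 3 libraries) and in raw counts for TNFRSF10C, TNFRSF10D and FAS. TNFRSF10B stands at 240 to 289 CPM at 0.5 and 1 µM against 43.6 to 50.5 in untreated cells, and the 3 low genes have 0 counts in every untreated library.

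Comparisons between doses showed where the levels moved. From 0.15 to 0.25 µM TNFRSF10A, CASP8 and CASP10, 3 of 7 members, were called, against 12.3% of all tested genes. From 0.25 to 0.5 µM 5 were called, TNFRSF10B higher and TNFRSF10A, TNFSF10, CASP10 and CFLAR lower (1 higher, 4 lower), against 30.4% (14.4% higher, 16% lower). From 0.15 to 1 µM 4 were called (1 higher, 3 lower), against 44.5%. Between 0.5 and 1 µM the number was 0 for the members and 0 (0%) for all genes by edgeR, with 0 members and 372 genes at an unadjusted p under 0.05, and DESeq2 also called 0 members. The 372 are fewer than a threshold of 0.05 gives among 23711 genes that do not differ, so p-values ran high here. The absence of calls does not show equal levels.

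TNFRSF10B (ENSG00000120889.13, hg38 chromosome 8, 23020133 to 23069031, minus strand) encodes DR5, a receptor with a full death domain. It measured 43.6, 50.5 and 46.9 CPM in untreated cells, 62.7, 73.2 and 46.6 at 0.15 µM, 74.3, 82.2 and 99.7 at 0.25 µM, 246, 287 and 252 at 0.5 µM, and 289, 240 and 250 at 1 µM. The 0.15 µM libraries overlapped the untreated ones, with replicate 3 inside their range, and all libraries at higher doses lay above them. Against untreated cells the log2 fold change was 0.37 ± 0.16 (adjusted p = 0.0649) at 0.15 µM, which did not pass, and 0.86 ± 0.16 (adjusted p = 0.000167) at 0.25 µM. At 0.5 and 1 µM it was 2.48 ± 0.17 (adjusted p = 3.40e-10) and 2.47 ± 0.17 (adjusted p = 3.58e-10). The change at 1 µM exceeded that of 78.2% of all tested genes. The step from 0.15 to 0.25 µM (0.49 ± 0.16, adjusted p = 0.0574) did not pass, and it passed under 9 of 24 alternatives, among them the fits without replicate 2 at 0.15 µM (0.64, adjusted p = 0.0356), replicate 1 at 0.25 µM (0.57, adjusted p = 0.0481) or replicate 3 at 0.5 µM (0.49, adjusted p = 0.0357). From 0.25 to 0.5 µM the level rose by a further 1.62 ± 0.17 (adjusted p = 6.56e-07). Without replicate 3 at 0.15 µM or without replicate 3 at 0.25 µM the comparison at 0.15 µM passed, with log2 fold changes of 0.53 (adjusted p = 0.00903) and 0.37 (adjusted p = 0.0407). RHOBTB2, on the other strand, covers 7.53% of the exon bases of TNFRSF10B.

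TNFRSF10A (ENSG00000104689.10, chromosome 8, 23190452 to 23225102, minus strand) encodes DR4, the other TRAIL receptor with a death domain, and moved in the opposite direction. Its libraries stood at 49.8, 45.9 and 47.9 CPM untreated, 34.3, 36.1 and 37.9 at 0.15 µM, 22.8, 23.9 and 25.8 at 0.25 µM, 6.36, 8.20 and 7.32 at 0.5 µM, and 7.10, 7.53 and 8.02 at 1 µM. No library of any dose overlapped the untreated ones, and the levels of the 2 highest doses overlapped each other. The log2 fold changes were -0.41 ± 0.13 (adjusted p = 0.0144), -0.98 ± 0.13 (adjusted p = 3.42e-06), -2.71 ± 0.14 (adjusted p = 7.97e-12) and -2.66 ± 0.14 (adjusted p = 9.63e-12) from the lowest to the highest dose. TNFRSF10A was the only member called at all 4 doses, as 15.1% of all tested genes were called lower at all 4. The call at 0.15 µM was lost without untreated replicate 1 (-0.38, adjusted p = 0.0524), without replicate 1 at 0.15 µM (-0.37, adjusted p = 0.0602) and with library totals (-0.05, adjusted p = 0.818). Steps from 0.15 to 0.25 µM (-0.58 ± 0.13, adjusted p = 0.00780) and from 0.25 to 0.5 µM (-1.73 ± 0.14, adjusted p = 3.42e-08) were called too, the former not with library totals (-0.40, adjusted p = 0.117), with TMM factors from the abundant genes (-0.41, adjusted p = 0.0586) or with the compared libraries alone (-0.52, adjusted p = 0.0553). Transcripts TNFRSF10A-AS1 and TNFRSF10A-DT, on the other strand, cover 16.7% of its exon bases.

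The relation of the receptors turned over within the dose series. Per kilobase of the canonical transcript, untreated cells held 17.8 ± 0.729 CPM of TNFRSF10A and 11.8 ± 0.872 CPM of TNFRSF10B (SD, n = 3), and at 1 µM they held 2.81 ± 0.172 and 65.0 ± 6.54. The log2 ratio of TNFRSF10B to TNFRSF10A on this scale was -0.77, -0.43 and -0.60 in untreated libraries and 0.30, 0.45 and -0.27 at 0.15 µM. It was 1.13, 1.21 and 1.38 at 0.25 µM, 4.70, 4.56 and 4.53 at 0.5 µM, and 4.78, 4.42 and 4.39 at 1 µM. All treated libraries lay above all untreated ones, and those at 0.5 and 1 µM lay apart from the lower doses. The mean ratio was 36.7 times the untreated ratio at 0.5 µM and 35.0 times at 1 µM, given as a description without a test.

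**Figure D2:**
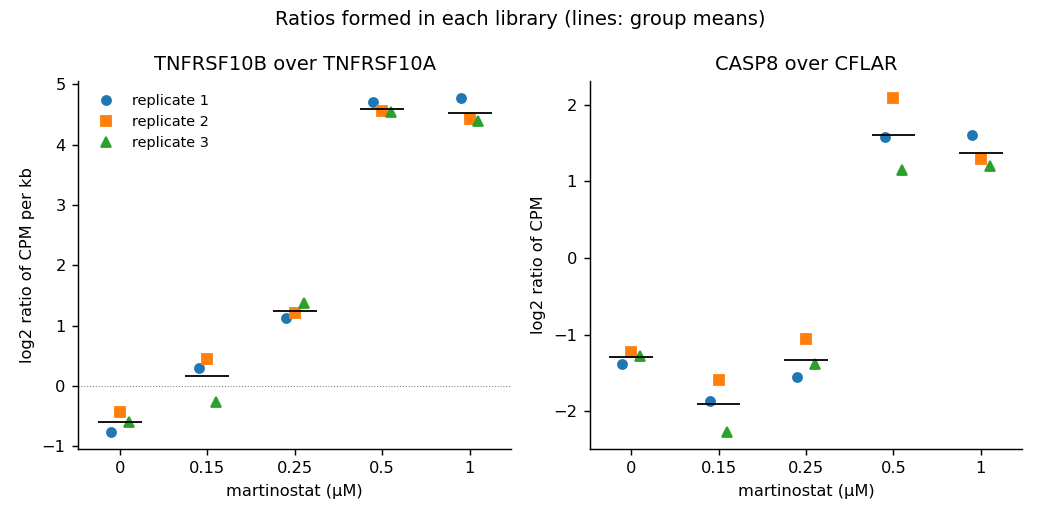
Log2 ratio of TNFRSF10B to TNFRSF10A (CPM per kb) and of CASP8 to CFLAR (CPM) in each of the 15 libraries by martinostat dose, with group means as lines. The receptor ratio runs from -0.60 in untreated cells to 4.53 at 1 µM, and the CASP8 to CFLAR ratio moves between 0.25 and 0.5 µM.

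The decoy receptors TNFRSF10C (ENSG00000173535.15, chromosome 8, 23102921 to 23117445) and TNFRSF10D (ENSG00000173530.6, chromosome 8, 23135588 to 23164027), which lie between the genes of both agonist receptors, stayed near the detection limit. Each had 0 counts in all 3 untreated libraries, which allows up to 0.0395 CPM over the group (3 counts, counting error only). TNFRSF10C had 2, 0 and 4 counts at 0.15 µM, 3, 2 and 1 at 0.25 µM, 8, 0 and 1 at 0.5 µM, and 3, 0 and 0 at 1 µM. TNFRSF10D had 2, 0 and 4 counts at 0.15 µM, 4, 8 and 9 at 0.25 µM, 4, 1 and 0 at 0.5 µM, and 8, 6 and 14 at 1 µM. Counts of TNFRSF10D were present in every library at 0.25 and 1 µM but not in every library at 0.5 µM. Its pooled level at 1 µM was 0.326 CPM (95% exact Poisson interval 0.217 to 0.472), 8.26 times the untreated floor. At 0.25 µM it was 0.216 CPM (0.134 to 0.330), 5.46 times the floor. These multiples are point estimates and not lower bounds. Transcripts of 2 unnamed genes on the same strand share 33.0% of the exon bases of TNFRSF10C.

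FAS (ENSG00000026103.22, chromosome 10, 88953813 to 89029605), the receptor of FAS ligand, was also low. It had 0 counts in the untreated libraries, 0, 4 and 0 at 0.15 µM, 4, 2 and 10 at 0.25 µM, 2, 2 and 0 at 0.5 µM, and 6, 0 and 2 at 1 µM. The pooled level was highest at 0.25 µM, 0.164 CPM (95% exact Poisson interval 0.0939 to 0.267), and 0.0932 CPM (0.0403 to 0.184) at 1 µM. Its ligand gene FASLG had 0 counts in untreated cells and at 1 µM. All 3 low genes fell under the low-count filter, so they carry no test across libraries in the reported fit.

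The ratio of agonist to decoy receptors was not defined in untreated cells, since both decoys were at 0. With 0.5 CPM added to each gene and levels divided by exon length, the log2 ratio was 5.81 ± 0.00162 in untreated cells (SD, n = 3). In order of dose it was 5.55 ± 0.313, 5.48 ± 0.217, 6.63 ± 0.456 and 6.56 ± 0.0920. Two-sided exact permutation tests against untreated cells gave p = 0.4, 0.1, 0.1 and 0.1, where 0.1 is the smallest p that 3 against 3 libraries allow, and 0.4, 0.133, 0.133 and 0.133 after Benjamini-Hochberg adjustment over 4 doses. Group means of both decoys were at most 0.326 CPM, so the added 0.5 CPM made up most of the denominator and largely set the level of this ratio. In untreated cells the denominator was that constant alone, so the spread there came from the agonist receptors only. Without division by length this untreated SD was 0.0229. At 0.5 and 1 µM the ratio mostly restates the sum of the agonist receptors, most of which was TNFRSF10B. At 0.15 and 0.25 µM its differences from untreated cells, -0.26 and -0.32, also depended on the few decoy counts.

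TNFSF10 (ENSG00000121858.11, chromosome 3, 172505508 to 172523475, minus strand), the gene of TRAIL whose upstream bases are shown above, was expressed at a low level. It measured 2.33, 3.32 and 2.15 CPM in untreated cells, 3.34, 4.13 and 3.37 at 0.15 µM, 3.15, 3.65 and 4.21 at 0.25 µM, 0.707, 0.753 and 0.707 at 0.5 µM, and 0.852, 0.484 and 0.558 at 1 µM. The libraries at 0.5 and 1 µM all lay below the untreated range, and those at 0.15 µM lay above it by a narrow margin. Log2 fold changes of 0.47 ± 0.27 (adjusted p = 0.156) at 0.15 µM and 0.50 ± 0.27 (adjusted p = 0.120) at 0.25 µM did not pass, and 3 of 24 alternatives, library totals among them, called each of them higher. At 0.5 and 1 µM the gene fell by 1.85 ± 0.30 (adjusted p = 2.62e-05) and fell by 2.04 ± 0.30 (adjusted p = 9.12e-06) on the log2 scale. From 0.25 to 0.5 µM it fell by 2.34 ± 0.30 (adjusted p = 8.18e-06). The counts behind the high doses were 14 to 26 per library.

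CFLAR (ENSG00000003402.20, chromosome 2, 201116154 to 201176687, plus strand), the gene of the caspase-8 inhibitor c-FLIP, showed the sharpest step among the members. Its libraries held 81.3, 86.2 and 82.0 CPM untreated, 106, 104 and 120 at 0.15 µM, 113, 95.8 and 151 at 0.25 µM, 12.5, 10.3 and 23.9 at 0.5 µM, and 12.5, 13.9 and 17.5 at 1 µM. All libraries at 0.15 and 0.25 µM lay above the untreated range, and all at 0.5 and 1 µM lay below it. Replicate 3 was the highest library of its group at both 0.25 and 0.5 µM. Values of 0.40 ± 0.24 (adjusted p = 0.169) and 0.53 ± 0.24 (adjusted p = 0.0625) at 0.15 and 0.25 µM did not pass in the fit of all libraries. At 0.25 µM 12 of 24 alternatives passed, the fit with a replicate block among them (0.49, adjusted p = 0.0286), and without replicate 3 at 0.25 and 0.5 µM the value was 0.35 (adjusted p = 0.0355) at 0.25 µM and 0.40 (adjusted p = 0.00933) at 0.15 µM. Leaving out replicate 2 at 0.25 µM (0.66, adjusted p = 0.0349), replicate 2 at 0.5 µM (0.52, adjusted p = 0.0346) or replicate 3 at 0.5 µM (0.52, adjusted p = 0.00591) gave a call at 0.25 µM, and the last also gave a call at 0.15 µM (0.40, adjusted p = 0.0358). At 0.5 and 1 µM CFLAR fell by 2.41 ± 0.25 (adjusted p = 1.71e-07) and fell by 2.51 ± 0.25 (adjusted p = 1.08e-07). From 0.25 to 0.5 µM it fell by 2.94 ± 0.26 (adjusted p = 1.75e-07), and 1.30% of all tested genes had a lower value in that step. CFLAR-AS1 and IMPDH1P10, on the other strand inside the gene, cover 10.1% of its exon bases.

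CASP8 (ENSG00000064012.22, chromosome 2, 201233443 to 201361836, plus strand) encodes the initiator caspase that c-FLIP restrains. It measured 31.2, 36.9 and 33.7 CPM untreated, 28.9, 34.5 and 24.8 at 0.15 µM, 38.5, 46.2 and 57.8 at 0.25 µM, 37.5, 44.1 and 53.0 at 0.5 µM, and 38.1, 34.1 and 40.2 at 1 µM. At 0.25 and 0.5 µM all libraries lay above the untreated ones, replicate 3 farthest, while those at 0.15 and 1 µM overlapped them. CASP8 was called higher at 0.25 µM (0.49 ± 0.17, adjusted p = 0.0191) and at 0.5 µM (0.40 ± 0.17, adjusted p = 0.0441), but these changes were 0.17 and 0.06 above the median of all tested genes. It was not called at 0.15 µM (-0.21, adjusted p = 0.331) or at 1 µM (0.14, adjusted p = 0.475), but TMM factors from the abundant genes (0.53, adjusted p = 0.0212) and 10 counts required in every library (0.42, adjusted p = 0.0445) gave a call at 1 µM. The call at 0.25 µM was lost without untreated replicate 1 (0.42, adjusted p = 0.0782), untreated replicate 3 (0.47, adjusted p = 0.0541) or replicate 3 at 0.25 µM (0.34, adjusted p = 0.0964). The call at 0.5 µM was lost under 11 of 24 alternatives, with values of 0.27 to 0.47 and adjusted p from 0.0510 to 0.194. Among these were the fits without any of the untreated replicates, without replicate 1 at 0.15 µM, replicate 2 at 0.25 µM, replicates 1 or 3 at 1 µM, replicate 2 at 0.5 µM and replicate 3 at 0.5 µM, the last with the lowest value. From 0.15 to 0.25 µM CASP8 rose by 0.69 ± 0.17 (adjusted p = 0.0128), a call lost without replicate 1 (0.68, adjusted p = 0.0501) or 3 (0.63, adjusted p = 0.0537) at 0.15 µM or replicate 3 at 0.25 µM (0.55, adjusted p = 0.0551).

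CASP10 (ENSG00000003400.15, chromosome 2, 201182872 to 201229428, plus strand), the gene of the related initiator caspase, was highest at 0.25 µM. The values were 39.9, 40.3 and 43.8 CPM untreated, 54.5, 56.5 and 51.4 at 0.15 µM, 74.6, 83.8 and 70.4 at 0.25 µM, 41.0, 44.4 and 55.0 at 0.5 µM, and 45.8, 41.4 and 52.1 at 1 µM. The groups at 0.15 and 0.25 µM overlapped neither each other nor the untreated libraries, and the higher doses overlapped the untreated ones. CASP10 was called higher at 0.15 µM (0.39 ± 0.14, adjusted p = 0.0243) and 0.25 µM (0.88 ± 0.14, adjusted p = 2.08e-05), 0.11 and 0.57 above the median of all tested genes. It was not called at 0.5 µM (0.18, adjusted p = 0.259) or 1 µM (0.17, adjusted p = 0.294). Both higher doses were called higher with library totals (0.58, adjusted p = 0.00632, and 0.52, adjusted p = 0.0129), with TMM factors from the abundant genes (0.60, adjusted p = 0.00150, and 0.55, adjusted p = 0.00323) and with 10 counts required in every library (0.47, adjusted p = 0.00442, and 0.44, adjusted p = 0.00702). From 0.25 to 0.5 µM it fell by 0.70 ± 0.14 (adjusted p = 0.000681). The call at 0.15 µM was lost without untreated replicate 1 (0.36, adjusted p = 0.0793) or 2 (0.37, adjusted p = 0.0775) and without replicate 1 (0.39, adjusted p = 0.0595) or 2 (0.36, adjusted p = 0.0763) at 0.15 µM. The rise from 0.15 to 0.25 µM (0.49 ± 0.14, adjusted p = 0.0250) was lost without any of the replicates at 0.15 µM (adjusted p = 0.0751, 0.0596 and 0.0546 without replicates 1, 2 and 3) and without replicate 2 at 0.25 µM (0.41, adjusted p = 0.113).

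FADD (ENSG00000168040.5, chromosome 11, 70203296 to 70207390, plus strand), the adaptor that links the receptors to both caspases, held 20.9, 22.1 and 22.7 CPM untreated and 28.8, 23.5 and 28.4 at 0.15 µM. It held 21.2, 25.3 and 21.3 CPM at 0.25 µM, 22.6, 25.4 and 17.1 at 0.5 µM, and 21.6, 21.6 and 26.1 at 1 µM. Libraries at 0.15 µM lay above the untreated ones, and those at other doses overlapped them. The log2 fold changes were 0.30 ± 0.16 (adjusted p = 0.131), 0.04 ± 0.16 (adjusted p = 0.823), -0.02 ± 0.16 (adjusted p = 0.930) and 0.08 ± 0.16 (adjusted p = 0.688). At 0.5 µM the sign turned with the scaling, to 0.34 (adjusted p = 0.0469) with library totals and 0.38 (adjusted p = 0.0253) with TMM factors from the abundant genes, so no direction is given. With these scalings FADD was called higher at the other doses too, with 0.65 (adjusted p = 0.00113) and 0.56 (adjusted p = 0.00354) at 0.15 µM, 0.57 (adjusted p = 0.00253) and 0.46 (adjusted p = 0.00951) at 0.25 µM, and 0.43 (adjusted p = 0.0144) and 0.46 (adjusted p = 0.00909) at 1 µM. The filter of 10 counts in every library gave calls at 0.15 µM (0.47, adjusted p = 0.0127) and 1 µM (0.35, adjusted p = 0.0416), and the compared libraries alone at 0.15 µM (0.32, adjusted p = 0.0443). An antisense gene without a symbol covers 59.2% of the exon bases of FADD.

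**Figure D3:**
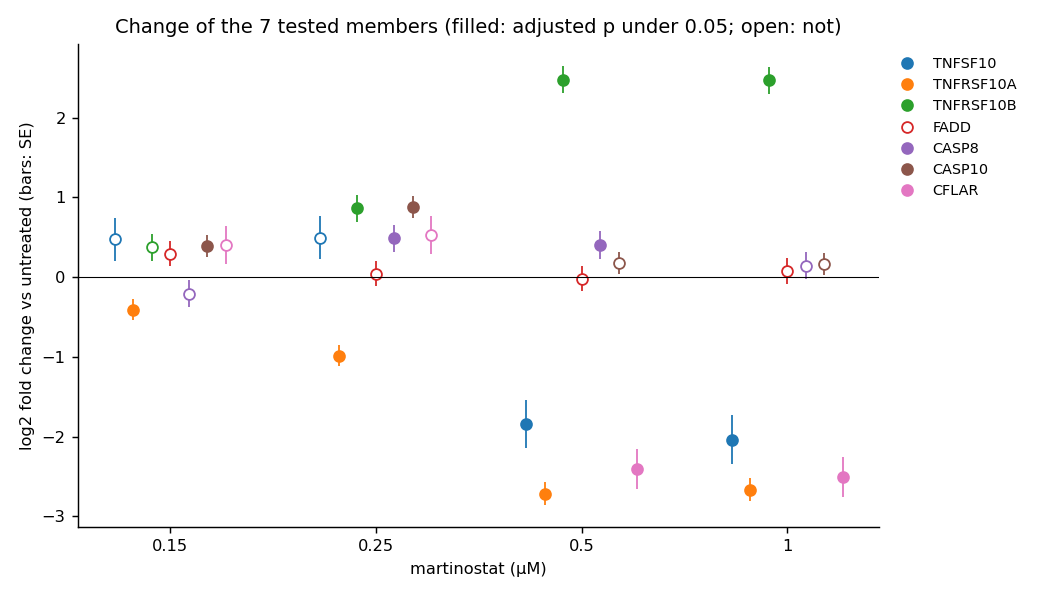
Log2 fold change of the 7 tested members against untreated cells at each dose, with SE bars. Filled points passed an adjusted p of 0.05 in edgeR's quasi-likelihood test, and TNFRSF10B at 2.47 stands opposite TNFRSF10A, CFLAR and TNFSF10 at -2.66 to -2.04 at 1 µM (TMM scale).

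Caspase-8 and c-FLIP compete for FADD, so the ratio of their transcripts was formed in each library from CPM. These CPM are not divided by length, and changes of the ratio are therefore given rather than its level. The log2 ratio of CASP8 to CFLAR was -1.38, -1.22 and -1.29 in untreated libraries, -1.87, -1.59 and -2.27 at 0.15 µM, and -1.55, -1.05 and -1.38 at 0.25 µM. It was 1.58, 2.09 and 1.15 at 0.5 µM and 1.61, 1.30 and 1.20 at 1 µM. Libraries at 0.15 µM lay below the untreated range and those at 0.25 µM on both sides of it, while all libraries at 0.5 and 1 µM lay above it. The mean differed from the untreated mean by -0.61, -0.03, 2.91 and 2.67 in order of dose, and at 0.5 and 1 µM it was 7.50 and 6.35 times the untreated ratio. Two-sided exact permutation tests gave p = 0.1, 1, 0.1 and 0.1, and 0.133, 1, 0.133 and 0.133 after adjustment over 4 doses. An exact test of 3 against 3 libraries cannot go below p = 0.1, so none of these could pass.

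On the scale per kilobase of canonical transcript, the order of levels in untreated cells was TNFRSF10A (17.8 ± 0.729 CPM per kb), FADD (12.8 ± 0.522), CASP8 (12.8 ± 1.09), TNFRSF10B (11.8 ± 0.872), CASP10 (7.29 ± 0.378), CFLAR (5.69 ± 0.181) and TNFSF10 (1.39 ± 0.336), each as mean ± SD with n = 3. The libraries of FADD, CASP8 and TNFRSF10B overlapped on this scale. At 1 µM the order was TNFRSF10B (65.0 ± 6.54), CASP8 (14.1 ± 1.17), FADD (13.5 ± 1.52), CASP10 (8.19 ± 0.950), TNFRSF10A (2.81 ± 0.172), CFLAR (1.00 ± 0.180) and TNFSF10 (0.336 ± 0.104). CASP8 and FADD differed by less than their SD. Cells may use other transcripts than the canonical ones, so the levels between genes are approximate.

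Genes whose pattern was most like that of a member were found among 10944 protein-coding genes by the root mean square difference of centred log2 CPM over the 15 libraries. For TNFRSF10A they were SEPTIN8 (0.114), TMA16 (0.134) and SLC35F2 (0.147), with a median of 1.11 from TNFRSF10A to all genes compared. For TNFRSF10B they were CSRNP2 (0.137), WDR47 (0.141) and CCNYL1 (0.152). For CFLAR the nearest were TMEM273 (0.181), MYB (0.221) and ERMAP (0.221), and TNFRSF10A was the member nearest to it (0.620, rank 128). In the list of TNFRSF10A, CFLAR had rank 1093. CASP10 had ACVR1B (0.0973), KIAA0040 (0.139) and SIPA1L1 (0.147) nearest, CASP8 had FNBP1L (0.129), KIAA0232 (0.130) and GNPTAB (0.133), and FADD had JUP (0.103), MINPP1 (0.119) and TUBB6 (0.132). The distance between CASP8 and CASP10 was 0.341 (rank 894 in the list of CASP8 and 484 in that of CASP10), and between TNFRSF10A and TNFRSF10B 2.19. Medians over all genes compared were 1.25 for TNFRSF10B, 1.44 for CFLAR, 0.659 for CASP10, 0.646 for CASP8 and 0.535 for FADD. The points share libraries and scaling, and the distances are descriptions.

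The members with genomic neighbours were set beside every tested gene within 200 kb. Around TNFRSF10A to TNFRSF10D, 13 of 19 other annotated genes were tested. At 1 µM 5 were higher and 2 lower, against 38.8% and 27.5% of all tested genes. The higher genes included RHOBTB2 (3.80, adjusted p = 3.59e-11), whose 3′ end meets that of TNFRSF10B from the other strand, and LOXL2 (3.42, adjusted p = 1.40e-12). The others called higher were CHILL1 (0.132 CPM untreated and 0.545 at 1 µM), ENSG00000246130 (0.0776 and 4.39 CPM), which has no symbol and starts beside TNFRSF10B on the other strand, and another gene without a symbol. These 3, among 6 of the 13, did not reach the filter on low counts in untreated libraries and passed it through treated ones, so their calls are no support. The lower genes were TNFRSF10A-AS1 (-4.41, adjusted p = 8.18e-06) and TNFRSF10A-DT (-1.77, adjusted p = 3.66e-06), the non-coding neighbours that overlap TNFRSF10A. CHMP7, R3HCC1, ENTPD4 and LOXL2-AS1 were not called, with log2 fold changes of -0.06, 0.46, 0.55 and 1.78, and the remaining pair, without symbols, was not called either. At 0.15 µM 6 of the 13 were higher and 0 lower, against 31.9% and 19.4% of all tested genes. Of these 6, only RHOBTB2 and LOXL2 reached the filter in untreated libraries, so the other calls are no support.

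Around CFLAR, CASP10 and CASP8, 16 of 31 other annotated genes were tested. At 1 µM 4 were higher and 3 lower, against 38.8% and 27.5% of all tested genes. TRAK2 (1.06, adjusted p = 3.70e-05) and NDUFB3 (0.40, adjusted p = 0.0255) were higher. The others called higher were FLACC1 (0.456 CPM untreated and 3.83 at 1 µM), which lies within CASP8 on the other strand, and an unnamed gene, and both did not reach the filter in untreated libraries, as 9 of the 16 did not. ORC2 (-1.12, adjusted p = 1.51e-07), CFLAR-AS1 (-1.58, adjusted p = 0.00551) and the pseudogene IMPDH1P10 (a mean of 0.157 CPM untreated and 0.0116 at 1 µM) were lower. HYCC2 (0.09) and STRADB (-0.09), on either side of the cluster, were not called. The others tested, HNRNPA1P35, RPL23AP30, Metazoa_SRP, MTND5P25, MTND4P23, SCYL2P1 and C2CD6, were not called either.

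**Figure D4:**
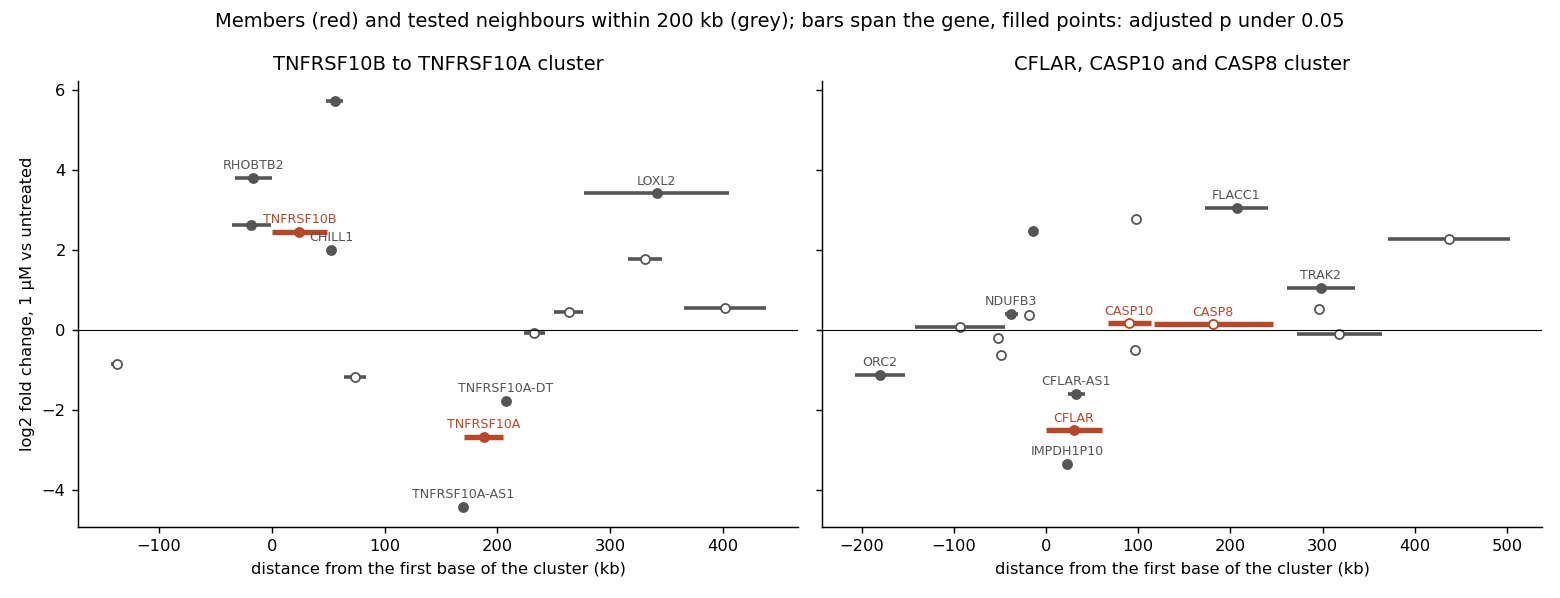
Log2 fold change at 1 µM against untreated cells of the members (red) and the tested genes within 200 kb (grey), by distance in kb from the start of each cluster, with bars that span the genes and filled points for an adjusted p under 0.05. TNFRSF10B (2.47) and TNFRSF10A (-2.66) lie in the same cluster with opposite signs, and CFLAR (-2.51) lies beside CASP10 (0.17) and CASP8 (0.14).

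Other genes of the pathway were described in 3 lists. Of 37 listed genes 31 were tested. At 1 µM 21 of the 31 were called, 10 higher and 11 lower, against 66.2% of all tested genes. The higher genes included RIPK3, TNFRSF25 and BIRC3, which did not reach the filter in untreated libraries, so these calls are no support. Library totals gave 11 higher and 8 lower.

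Among 11 other ligands, death receptors and soluble decoys, 5 were tested, and at 1 µM 2 were higher and 1 lower, with a median of 0.68 against 0.32 over all tested genes. TNFRSF25 (DR3), a death receptor of the TNF receptor family, had 3, 3 and 0 counts in untreated libraries and 69, 40 and 57 at 1 µM (0.0795 ± 0.0690 and 1.94 ± 0.535 CPM). It was among the genes called higher, but it reached the filter on low counts only in the treated groups, so no fold change or p is given. TNFRSF12A, the receptor of TWEAK, rose from 15.9 ± 0.363 to 32.7 ± 11.8 CPM (1.04 ± 0.20, adjusted p = 0.000190). TNFRSF1A, the main TNF receptor with a death domain, fell by 0.46 ± 0.15 (adjusted p = 0.0105). TNFSF12 and TNFRSF21 were not called at 1 µM, with values of 0.68 and -0.32. At 0.15 µM TNFRSF21 was called higher with a value of 0.98. TNFSF12 had 3, 11 and 7 counts in untreated libraries and 39, 40 and 42 at 0.15 µM. It did not reach the filter in untreated cells, so its call at 0.15 µM is no support. The ligand TNF stood at 0.0518 CPM in untreated cells, and it was among the 6 genes under the filter.

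All 18 adaptors and regulators of the receptor complex were tested, and at 1 µM 5 were higher and 6 lower, with a median of -0.05. BIRC3 (cIAP2), a ubiquitin ligase of the TNF receptor complex, stood at 0.398 ± 0.151 CPM in untreated cells, 13.6 ± 1.39 at 0.15 µM, 19.4 ± 1.93 at 0.25 µM and 7.41 ± 1.11 at 1 µM. It was called higher, but with 14, 8 and 8 counts the untreated libraries did not all reach the filter. CYLD, a deubiquitinase that acts on RIPK1, went from 8.07 ± 0.405 to 40.6 ± 0.491 CPM (2.33 ± 0.15, adjusted p = 1.08e-10). TNFAIP3 (A20) at 1.37 ± 0.36 (adjusted p = 0.00270), TRADD at 1.01 ± 0.28 (adjusted p = 0.00444) and RBCK1 at 0.40 ± 0.15 (adjusted p = 0.0225) were the other higher genes. DAXX at -1.27, TRAF2 at -1.25, CUL3, a scaffold of the ligase that modifies caspase-8, at -1.22, OTULIN at -1.06, FAF1 at -0.92 and RIPK1 at -0.34 were lower, with adjusted p from 1.29e-07 to 0.0265. BIRC2, RNF31, SHARPIN, CASP8AP2, DEDD, DEDD2 and PEA15 were not called at 1 µM.

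All 8 substrates and executioners downstream of caspase-8 were tested, and 7 were called at each dose, 3 higher and 4 lower. The median was -0.08 at 1 µM. In order of dose 51.2%, 62.3%, 66.9% and 66.2% of all tested genes were called. RIPK3 was among the higher genes at each dose, but it did not reach the filter in untreated libraries, so its call is no support. MLKL was among the higher genes at 0.15 and 0.25 µM, and DIABLO at 0.5 and 1 µM. BID, the substrate that links caspase-8 to mitochondria, measured 111, 108 and 98.1 CPM in untreated cells and 8.09, 14.3 and 9.55 at 1 µM, and fell by 3.31 ± 0.25 (adjusted p = 1.82e-09). Its mean was 44.1 ± 9.59 CPM at 0.15 µM, 28.7 ± 3.39 at 0.25 µM and 10.6 ± 3.50 at 0.5 µM. CASP6, an executioner caspase, fell from 31.7 ± 4.17 to 10.6 ± 1.01 CPM (-1.58 ± 0.16, adjusted p = 7.31e-08). XIAP, an inhibitor of caspases, fell by 0.71 ± 0.12 (adjusted p = 6.25e-05). DIABLO (SMAC), an antagonist of XIAP, rose from 2.81 ± 1.26 to 6.50 ± 1.17 CPM (1.21 ± 0.30, adjusted p = 0.00169). RIPK3, the kinase of necroptosis that caspase-8 keeps in check, had 0 counts in untreated cells and 25, 60, 143 and 98 counts in the treated groups in order of dose. Its pooled level was 43.4 times the untreated floor of 3 counts at 0.5 µM and 28.9 times at 1 µM. These multiples are point estimates and not lower bounds, and RIPK3 passed the filter only through the treated libraries. MLKL, the target of RIPK3, was called higher at 0.15 µM (1.87) and 0.25 µM (1.56) and not at 1 µM (0.30, adjusted p = 0.354).

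**Figure D5:**
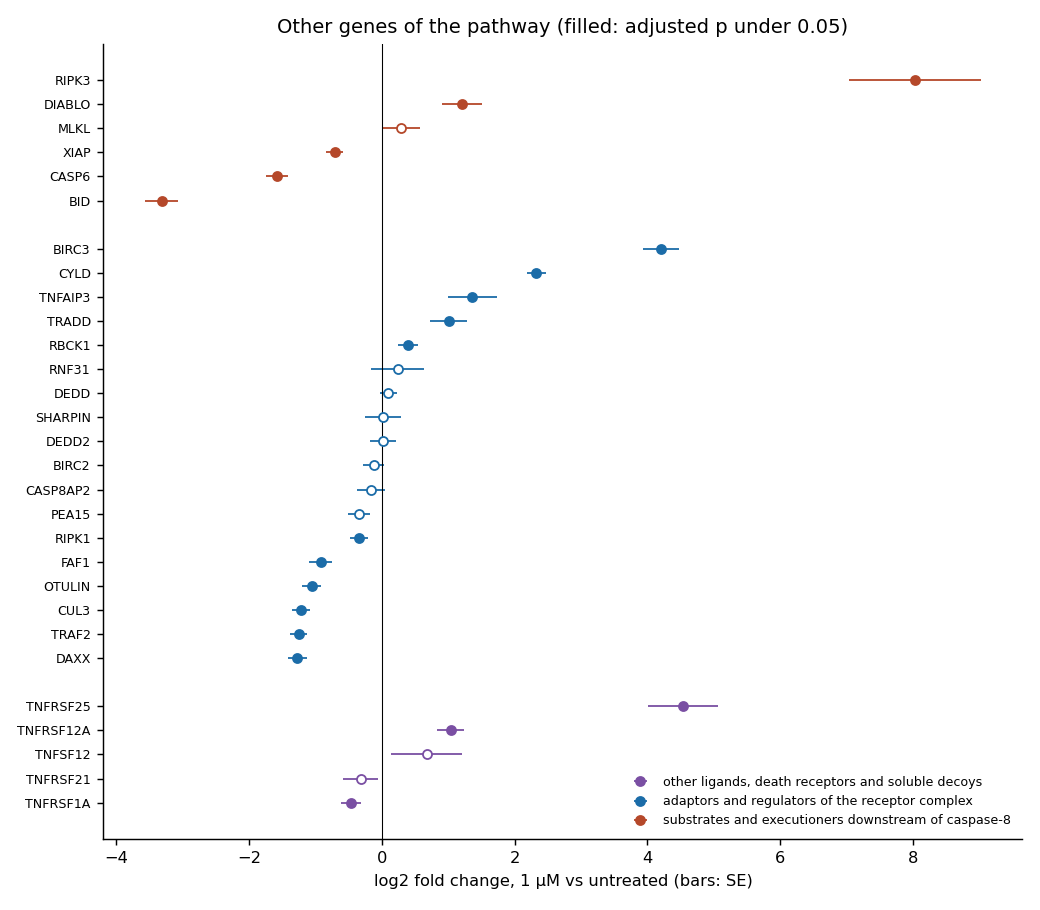
Log2 fold change at 1 µM against untreated cells, with SE bars, of 29 of the 31 tested genes in 3 pathway lists, filled where the adjusted p was under 0.05. BID (-3.31) is the lowest and RIPK3 the highest, and the value of RIPK3 is a fitted one that depends on the prior count because untreated cells had 0 counts. TNFRSF25, BIRC3 and TNFSF12 also did not reach the low-count filter in untreated cells.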

How the data were processed

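Per the labels and the methods of the study, poly(A) RNA of K562 cells was made into directional libraries and sequenced as paired ends. The authors trimmed reads with Trim Galore 0.6.10 and Trimmomatic, aligned them to hg38 with HISAT2 2.2.1, sorted them with SAMtools 1.21 and counted fragments per GENCODE 38 gene with featureCounts 1.5.3. The deposited table held raw counts of 60649 genes, not normalised. The strand setting is not given in the sources used here, so a gene and its antisense partner may not be fully told apart. The deposited FPKM were not used here.

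Members were matched by symbol (99.7% of identifiers had one). Positions and canonical transcripts came from GENCODE 44, of which 54131 identifiers had the same version, and upstream bases came from the hg38 genome. Counts were filtered with filterByExpr, scaled by TMM and fitted in edgeR 4.0.16 (R 4.3.3) with all 15 libraries and the group as the only term (10 residual degrees of freedom, biological coefficient of variation 0.228). Each dose was compared with untreated cells and with the next dose, and p-values were adjusted over 23711 genes. The study used DESeq2, which served here as an alternative (version 1.42.0) because the quasi-likelihood test carries the uncertainty of the spread. The fit was tested on simulated data in which few genes changed, so that test does not cover the scaling when many genes move. Ratios were tested by exact permutation. Alternatives were other scalings and filters, DESeq2, fits of the compared libraries alone, a replicate block and leaving out libraries.

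Named genes were the 10 members, genes of 3 pathway lists called at 1 µM with an absolute log2 fold change over 1 (at most 16), the 3 nearest patterns per member with a mean of at least 5 CPM, and tested neighbours within 200 kb. Other genes of the lists are named to account for each list and were chosen after their values were seen. Some genes and 1 upstream sequence are not reported here. The members and lists were chosen with earlier results of these data known. Intervals and floors cover counting error only.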

Additional observations from a re-analysis of the deposited data

How the results depend on the processing

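The directions of the large changes held under all 24 alternatives: TNFRSF10A and TNFRSF10B at 0.25, 0.5 and 1 µM, and TNFSF10 and CFLAR at 0.5 and 1 µM, kept their direction and their call. Over 1344 member values under alternatives, 1247 kept their call or lack of one, 59 gained a call and 36 lost one. Among the 1247 are values not called in either fit whose sign turned, as for CASP8 at 0.15 µM (-0.21, at most 0.16). A further 2 turned sign and were called. Those 2 were FADD at 0.5 µM, at 0.34 with library totals and 0.38 with TMM factors of the abundant genes (10 CPM or more). The number of members called at 0.15 µM, 2 in the reported fit, was 4 with library totals, 4 with the factors of abundant genes, 0 with no filter on low counts, 4 with at least 10 counts in every library, 5 with the compared libraries alone and 4 without replicate 3 at 0.25 µM and at 0.5 µM. At 0.25 µM the number was 7 of 7 tested instead of 4 with library totals and with the factors of abundant genes. With no filter it was 7 of 10, where TNFRSF10C, TNFRSF10D and FAS, at 0 counts in untreated cells, were tested too. TNFSF10 and FADD were not called in that setting, and calls of the low genes are no support. At 1 µM it was 7 instead of 4 with the factors of abundant genes and with at least 10 counts in every library. Leaving out each library in turn gave 0 to 3 called members at 0.15 µM and 1 to 4 from 0.15 to 0.25 µM (3 in the reported fit), against 3 to 5 at 0.25 µM, 4 to 5 at 0.5 µM and 4 at 1 µM. The lowest numbers came without untreated replicate 1 (0) or 2 (1) and without replicate 1 (0) or 2 (1) at 0.15 µM, and from 0.15 to 0.25 µM without replicate 1 (1) or 3 (1) at 0.15 µM. The cause of these shifts was not tested. Leaving out libraries moved the CASP8 to CFLAR difference within 2.66 to 3.14 at 0.5 µM and 2.55 to 2.75 at 1 µM.

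Replicate numbers in the labels did not pair the libraries: deviations of same-numbered libraries correlated above 0.1 in all pairs for only 1 of 10 pairs of groups, 0.25 and 0.5 µM (0.208 to 0.506). With the replicate block the members called were 5 at 0.25 µM, where CFLAR was added (0.49, adjusted p = 0.0286), and no other member call changed in any comparison. The ratio of agonist to decoy receptors had no value without added CPM, and its alternatives are given only as values: without division by length and with 0.5 CPM added, the log2 difference from untreated cells was -0.16, -0.16, 1.25 and 1.04 in order of dose. Leaving out libraries was not run for this ratio. Depth limits TNFRSF10C, TNFRSF10D and FAS, where 0 counts in untreated cells allow up to 0.0395 CPM.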
